A study of Rattus norvegicus with 8 samples.

Results

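RNA sequencing of rat hippocampus was used to follow the insulin-like growth factor (IGF) family, a set of 10 genes that held 2 ligands (Igf1 and Igf2), 2 receptors (Igf1r and Igf2r) and 6 binding proteins (Igfbp2 to Igfbp7). The 10 genes were found by NCBI GeneID among the 22601 genes of the deposited tables, and all 10 passed the filter on low values. They were chosen from earlier results of these libraries: the gene ontology term insulin-like growth factor I binding came to notice because 4 of its 12 tested genes (Igfbp4, Igfbp5, Insr and Insrr) were called between the Q808 and PTZ groups, and Igf2 and Igfbp2 because they followed a choroid plexus gene. For both comparisons with Q808 the values of the family are therefore given as a description, without a p-value.

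The libraries came from wild type Wistar rats of 180 to 220 g, whose age was not given in the sources used here. In the PTZ group (n = 3), pentylenetetrazole (PTZ), a blocker of GABA-A receptors, had been injected at 35 mg/kg every 48 h over 28 days (14 injections), with 60 mg/kg on the last day, followed by 28 days of the solvent of Q808. In the Q808 group (n = 2), kindled in the same way, the solvent was replaced by the anticonvulsant compound Q808 at 30 mg/kg by mouth daily, and in the vehicle control group (Con., n = 3) saline took the place of PTZ and was followed by the solvent. Rats of the PTZ and Q808 groups, but not of Con., received a further sub-convulsive PTZ dose before the tissue was collected, so the effects of kindling and of that last dose cannot be told apart, and the methods of the study state that the meninges were removed.

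IGF1 and IGF2 are small secreted proteins related to insulin that act on cell growth, survival and metabolism. Both bind the IGF1 receptor, a tyrosine kinase that signals through insulin receptor substrates, PI3 kinase and AKT, while the IGF2 receptor, which is also the mannose 6-phosphate receptor, takes IGF2 up for breakdown. The binding proteins IGFBP2 to IGFBP6 hold IGFs with high affinity outside the cell, and IGFBP7 binds them weakly. In the adult brain, the choroid plexus and the meninges are known as the main sources of Igf2, and the choroid plexus also makes Igfbp2. On the rat assembly GRCr8, Igf2, Igf1r and Igf2r lie on chromosome 1, Igf1 and Igfbp6 on chromosome 7, Igfbp2 and Igfbp5 on chromosome 9, Igfbp4 on chromosome 10 and Igfbp3 and Igfbp7 on chromosome 14. In the deposited annotation 6 of the 10 members carried the term for IGF-I binding, 6 that for IGF-II binding and 9 that for the extracellular space.

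Promoter windows of 3 genes are shown because Igf2 and Igfbp2 moved together across the libraries while Igfbp5, the neighbouring protein-coding gene of Igfbp2, did not move with them. Each window runs from 250 bases before to 50 bases after a transcription start in RefSeq on the rat assembly GRCr8. The positions are chr1:207253931-207254230 and chr1:207250426-207250725 on the minus strand for the 2 windows of Igf2, chr9:81864561-81864860 on the plus strand for Igfbp2 and chr9:81914138-81914437 on the minus strand for Igfbp5. Capitals mark the letters GGGCGG on either strand (a GC box), which read CCGCCC where they lie on the opposite strand.
Igf2 window 1: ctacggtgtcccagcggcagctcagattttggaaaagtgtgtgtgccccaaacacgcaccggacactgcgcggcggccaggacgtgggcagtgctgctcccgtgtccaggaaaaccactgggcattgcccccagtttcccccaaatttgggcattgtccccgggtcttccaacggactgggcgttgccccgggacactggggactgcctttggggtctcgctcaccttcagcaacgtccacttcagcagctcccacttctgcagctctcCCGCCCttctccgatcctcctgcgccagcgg
Igf2 window 2: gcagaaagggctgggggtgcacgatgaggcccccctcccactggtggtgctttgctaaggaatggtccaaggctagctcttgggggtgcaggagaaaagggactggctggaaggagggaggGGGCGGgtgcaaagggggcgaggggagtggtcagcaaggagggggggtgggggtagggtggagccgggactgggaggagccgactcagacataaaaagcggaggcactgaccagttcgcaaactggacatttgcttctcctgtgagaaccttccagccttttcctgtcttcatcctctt
Igfbp2: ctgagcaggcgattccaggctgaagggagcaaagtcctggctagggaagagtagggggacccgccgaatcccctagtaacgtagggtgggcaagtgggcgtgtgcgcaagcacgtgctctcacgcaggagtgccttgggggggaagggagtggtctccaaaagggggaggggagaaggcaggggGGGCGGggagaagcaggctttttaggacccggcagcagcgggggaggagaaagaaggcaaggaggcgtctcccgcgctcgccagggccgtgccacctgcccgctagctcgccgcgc
Igfbp5: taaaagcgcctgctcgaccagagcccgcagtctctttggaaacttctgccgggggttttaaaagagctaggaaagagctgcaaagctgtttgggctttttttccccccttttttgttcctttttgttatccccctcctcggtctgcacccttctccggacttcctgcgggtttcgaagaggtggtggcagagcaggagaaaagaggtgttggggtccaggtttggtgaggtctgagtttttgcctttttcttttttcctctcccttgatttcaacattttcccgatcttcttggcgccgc
One GC box stood in each of the Igf2 and Igfbp2 windows and none in that of Igfbp5, and 33.1% of the 33469 RefSeq promoter windows of this length held one. Of the other members, Igf1r (1), Igf2r (2) and Igfbp7 (4) held GC boxes too, and Igf1, Igfbp3, Igfbp4 and Igfbp6 held none. The window of Ttr held none either, at a GC content of 43.7%. The part of GC boxes in the levels was not tested. The GC content was 63.3% and 60.7% in the windows of Igf2, 66.7% in that of Igfbp2 and 50.7% in that of Igfbp5, against a median of 51.7% over all windows. Of the other motifs searched on both strands, none was matched in the 4 windows printed above. The TATA box (letters TATAAA) was held by 14.2% of all windows, the CCAAT box by 37.5%, a forkhead motif (letters TGTTTAC) by 3.78% and an Otx motif (letters TAATCC) by 7.17%.

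Values are FPKM, the fragments per kilobase of transcript scaled to the mapped total of each library, which correct for transcript length and allow levels to be set side by side between genes. Pairs of libraries were alike over all genes (Spearman rho 0.966 to 0.986), but 3 of the 8, Con.-3, PTZ-3 and Q808-1, stood apart by their markers. In those 3, the mean log2 level of 9 markers of striatal projection neurons was 6.37 to 7.64 against 2.09 to 3.01 in the other 5, and that of 8 markers of hippocampal neurons was 1.22 to 1.51 against 3.06 to 3.29. The labelled tissue was thus low in its own markers in 1 library of each group. Differences are given for all libraries and within these sets of 5 and 3, and the part of dissection in any of them was not tested. In the set of 3 each group has 1 library, so a difference there is between single libraries. In the set of 5 the Q808 group has Q808-2 alone. In bulk tissue, fewer cells of a type and less RNA per cell cannot be told apart.

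Of the other marker lists, that of the choroid plexus epithelium (15 genes) summed to 147 to 2613 FPKM in Con., 319 to 538 in PTZ and 195 to 6600 in Q808, and 13 of its genes were highest in Q808-2. Its regulator Otx2 was listed at 0 in every library. The meningeal fibroblast list (14 genes) summed to 21.7 to 55.4 FPKM in Con., 34.2 to 68.7 in PTZ and 43.3 to 138 in Q808, with 10 genes highest in Q808-2. Summed oligodendrocyte markers (8 genes) were at 6963 to 13758 FPKM where striatum markers were high, and at 2681 to 4463 elsewhere. The endothelial list (9 genes) summed to 97.9 to 101 FPKM in Con., 81.0 to 182 in PTZ and 116 to 211 in Q808, and the list of pericytes and vascular smooth muscle (8 genes) to 70.1 to 83.4, 60.03 to 159 and 133 to 166. Microglial markers (7 genes) summed to 149 to 174, 147 to 241 and 188 to 339 FPKM in the same order of groups, astrocyte markers (6 genes) to 1445 to 1680, 1679 to 2003 and 1561 to 2625, and interneuron markers (7 genes) to 275 to 586, 356 to 576 and 344 to 441.

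Averaged over the 8 libraries, the level of Igfbp7, a secreted protein of vessel walls, was the highest of the family at 84.5 FPKM. It was followed by Igfbp2 at 42.9, Igf2 at 24.6, Igfbp4 at 18.6, Igfbp5 at 13.9, Igfbp6 at 9.76, Igf2r at 8.08, Igf1r at 5.01, Igfbp3 at 2.87 and Igf1 at 1.44 FPKM. Of the neighbours in this order, Igf2r and Igf1r alone had ranges that did not overlap over the libraries. The level of Igfbp2 was above that of Igf2 in all 8 libraries, whereas Igf2 was above Igfbp4 in 3 of 8 and Igfbp6 above Igf2r in 4 of 8. The spread between libraries differed widely within the family. The SD of the log2 level over the 8 libraries was 1.55 for Igf2 and 1.60 for Igfbp2, larger than in 98.8% and 98.9% of the 12563 genes with a mean of at least 1 FPKM, and 0.91 for Igfbp3 (95.6%). The least variable member was Igf1r at 0.17, below the median of 0.29 over those genes.

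The level of Igf2, the ligand, was 27.8, 30.8 and 3.21 FPKM in Con.-1, Con.-2 and Con.-3. In PTZ-1, PTZ-2 and PTZ-3 it was 7.72, 6.94 and 17.8 FPKM, and in Q808-1 and Q808-2 it was 7.73 and 94.5 FPKM. Within each group 1 library stood far from the rest, low in Con.-3 and high in PTZ-3 and Q808-2, and the 3 groups overlapped. The level of Igfbp2, a binding protein with a preference for IGF2, was 63.8, 52.1 and 4.05 FPKM in the Con. libraries, 15.0, 14.8 and 22.0 in the PTZ libraries and 18.3 and 153 in the Q808 libraries. Its high and low libraries were those of Igf2, and the ratio of Igfbp2 to Igf2 stayed between 1.24 and 2.37 while each gene ranged 37.9-fold and 29.5-fold. Ttr, which encodes the thyroid hormone and retinol carrier transthyretin and is among the most abundant transcripts of the choroid plexus epithelium, had 2495, 2462 and 87.4 FPKM in Con., 399, 271 and 475 in PTZ and 156 and 6301 in Q808, a range of 72.1-fold.

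Library by library, Igf2 and Igfbp2 followed Ttr in 7 of 8 libraries to within 1 rank. In Q808-2 all 3 genes had their highest level, and in Con.-3 all 3 had their lowest. Con.-1 and Con.-2 held ranks 2 and 3 of Ttr and of both genes, in reversed order for Igf2. PTZ-3 held rank 4 for all 3 genes, although Igf2 there was above its mean over the 8 libraries by 0.29 on the log2 scale while Ttr was below its own (-0.42). PTZ-1 and PTZ-2 held ranks 5 and 6 for Ttr and 6 and 7 for both Igf2 and Igfbp2. The exception was Q808-1, where Ttr held rank 7 (-2.03 from its mean) while Igf2 and Igfbp2 held rank 5 (-0.90 and -0.48). Igfbp2 was on the same side of its mean as Ttr in 8 of 8 libraries and Igf2 in 7 of 8, with PTZ-3 as its exception.

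**Figure D1:**
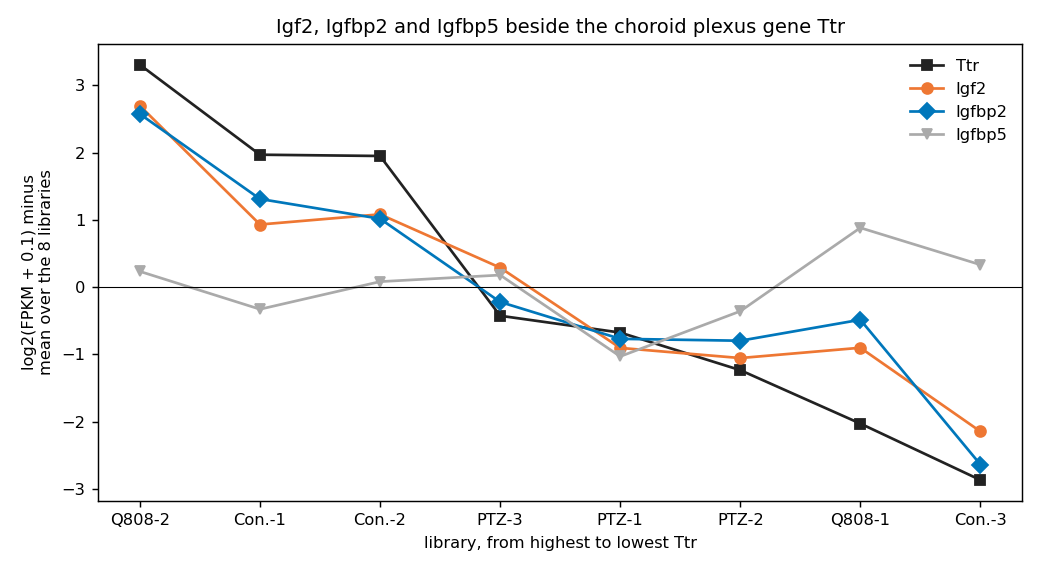
Log2(FPKM + 0.1) minus its mean over the 8 libraries (y axis) for Ttr, Igf2, Igfbp2 and Igfbp5, with the libraries ordered on the x axis from the highest to the lowest Ttr; each point is 1 library and lines join the points of a gene. Igf2 and Igfbp2 are highest in Q808-2 and lowest in Con.-3, as Ttr is; both rise from PTZ-2 to Q808-1 (to -0.90 and -0.48) where Ttr falls to -2.03, and Igf2 also rises slightly from Con.-1 to Con.-2.

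The following was not proportional. Per unit of Igf2, the Ttr level was 20.2-fold in Q808-1 and 89.9-fold in Con.-1, and per unit of Igfbp2 it was between 8.53-fold in Q808-1 and 47.3-fold in Con.-2. Per unit of Igf2 it was 27.3-fold in Con.-3, 26.7-fold in PTZ-3, 39.1-fold in PTZ-2, 51.8-fold in PTZ-1 and 66.7-fold or more in Con.-1, Con.-2 and Q808-2. Between the 2 Q808 libraries Ttr differed 40.3-fold, Igf2 12.2-fold and Igfbp2 8.36-fold. Measured as the root mean square difference of centred log2 levels, the distance from Ttr was 0.76 for Igf2 and 0.75 for Igfbp2. The other genes of the choroid plexus list, leaving out Otx2, lay between 0.11 for the tight junction gene Cldn2 and 1.90 for the carbonic anhydrase gene Car12. Folr1 (0.77), Kcne2 (1.06), Prlr (1.26) and Car12 lay further from Ttr than Igf2 and Igfbp2 did, and Car12 had its highest level (52.8 FPKM) in Con.-3, where Ttr was lowest. This distance also grows where the range of a gene is smaller than that of Ttr. Folr1, Kcne2 and Prlr were on the same side of their mean as Ttr in 8 of 8 libraries, against 7 of 8 for Car12 and Igf2. Igfbp3, at 1.28, was within 1 rank of Ttr in 7 of 8 libraries and the other 7 members lay between 1.89 and 2.18.

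Over the 8 libraries, the genes with a mean of at least 1 FPKM whose profile was most like that of Igf2 were Slc13a4 (0.23 by the same measure), an anion transporter gene of the meningeal list, the choroid plexus gene Clic6 (0.27) and Igfbp2 (0.34). Those most like Igfbp2 were Tnnt2 (0.26), Scgb1c1 (0.33) and Igf2 (0.34). Ttr came 38th in likeness to Igf2 and 27th to Igfbp2. The level of Slc13a4 was 7.42, 9.95 and 1.14 FPKM in Con., 2.34, 2.02 and 3.66 in PTZ and 2.20 and 25.7 in Q808. The genes most like the other members were Pip5k1b, Htr7 and Gpc4 for Igfbp3 (0.18 to 0.26), Col18a1, Mtcp1 and Cpt1b for Igfbp5 (0.19 to 0.21), Emp3, Lsr and Map3k7cl for Igfbp6 (0.17 to 0.18) and Btg3, Tubb3 and Pknox2 for Igfbp4 (0.13 to 0.14). They were the ribosomal protein genes Rps18, Rpl24 and Rps3a for Igfbp7 (0.06 to 0.07), Tsc22d1, Ubtd1 and Plekho1 for Igf1 (0.08 to 0.10), Ctr9, Zmym4 and Xpo5 for Igf1r (0.03 to 0.05) and Nlgn3, Pik3r4 and Fndc3b for Igf2r (0.07 to 0.09). In genes with a small spread, a small distance follows from the spread itself.

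Whether kindling changed the family was asked by comparing PTZ with Con. None of the 10 members was called (unadjusted p under 0.05 and more than 1.5-fold, limma), where 2.53% of the 15593 genes tested were. At an unadjusted p under 0.05 alone, 2 members passed, Igfbp4 and Igf2r, as did 589 of all genes. No gene of the table had a Benjamini-Hochberg adjusted p under 0.05, and all members had 0.999. The median log2 fold change was -0.16 over the family and -0.04 over all genes tested. Groups did not overlap for 4 of the 10 members (Igf1 and Igfbp4 higher and Igf1r and Igf2r lower in PTZ), against 9.15% of all genes. The PTZ libraries are shared with the comparison of Q808 with PTZ that drew attention to Igfbp4 and Igfbp5.

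Igfbp4, a binding protein that is cleaved by the protease PAPP-A to release IGFs, had 18.3, 15.7 and 14.4 FPKM in Con. and 22.9, 24.8 and 22.2 FPKM in PTZ. Every PTZ library was above every Con. library. The log2 fold change was 0.53 with a standard error (SE) of 0.14, a 1.45-fold difference just under the 1.5-fold threshold (limma, unadjusted p = 0.00611, adjusted p = 0.999). Within the sets of 5 and 3 it was 0.49 and 0.62.

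Igf2r, the receptor that clears IGF2, had 8.77, 10.6 and 9.33 FPKM in Con. against 6.92, 7.29 and 6.31 FPKM in PTZ. All PTZ libraries were lower, with a log2 fold change of -0.47 (SE 0.16, limma, unadjusted p = 0.0191, adjusted p = 0.999), and of -0.43 and -0.56 within the sets of 5 and 3. Igf1r, the signalling receptor, had 5.14, 5.54 and 5.26 FPKM in Con. and 4.44, 3.996 and 4.92 in PTZ. These groups did not overlap either, but the log2 fold change of -0.25 (SE 0.18) did not pass (limma, unadjusted p = 0.193). The ligand Igf1, made in brain by neurons and microglia, had 1.33, 1.47 and 0.946 FPKM in Con. and 1.86, 1.73 and 1.52 in PTZ. Its lowest PTZ library was just above the highest Con. library, and the log2 fold change was 0.44 (SE 0.27, limma, unadjusted p = 0.157).

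For Igf2 and Igfbp2 the comparison of PTZ with Con. turned its sign between the sets of libraries. Over all libraries the log2 fold changes were -0.51 (SE 0.86) and -0.49 (SE 0.97), with unadjusted p = 0.572 and 0.629 (limma). Within the set of 5 the differences were -1.98 and -1.95, and within the set of 3 they were 2.43 and 2.42. Ttr did the same, with -2.91 and 2.44. Without Con.-3, the Con. library with the least Ttr, Igf2, Igfbp2 and Igfbp3 were called lower in PTZ, with log2 fold changes of -1.56, -1.76 and -0.82. Without Con.-2 the value of Igf2 was 0.05, and without Con.-1 that of Igfbp2 was 0.21. Igfbp3, which carries most IGF in blood, gave -0.06 (SE 0.63) over all libraries, -0.74 within the set of 5 and 1.31 within the set of 3.

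**Figure D2:**
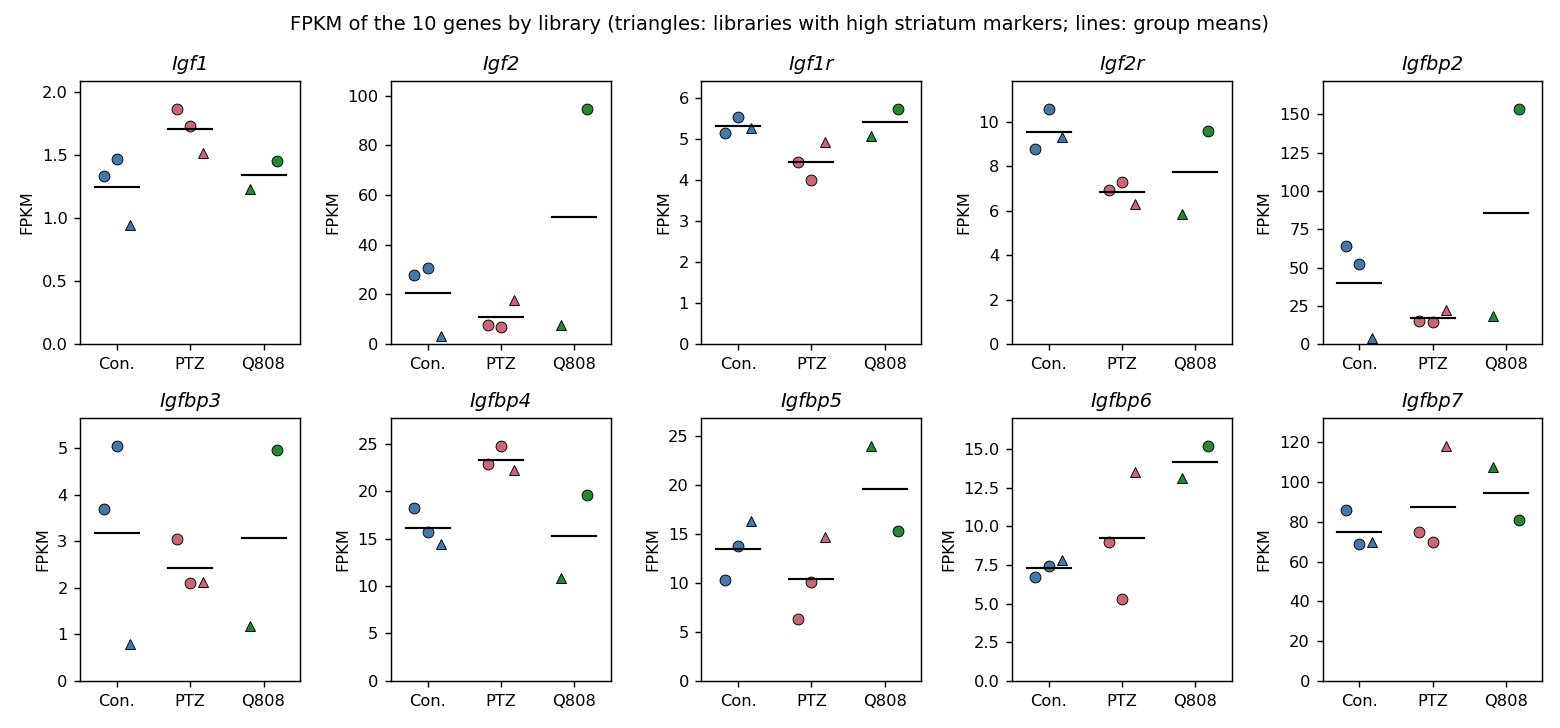
FPKM of the 10 members (y axes, linear and from 0) in each library of Con., PTZ and Q808 (x axes); circles are the 5 libraries with low striatum markers, triangles the 3 with high ones, and lines group means. Igf2 and Igfbp2 are spread within each group, from 4.05 to 63.8 FPKM for Igfbp2 in Con., while all PTZ libraries are above Con. for Igfbp4 and below it for Igf2r.

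Q808 was compared with PTZ to ask what the treatment did in kindled rats. In this comparison, which chose the members, 2 of 10 were called, Igfbp5 higher and Igfbp4 lower, where 1.92% of all genes were called. The groups did not overlap for 4 members, against 15.6% of all genes. Adjusted over all genes, no gene of this comparison had p under 0.05 (limma), while 341 had an unadjusted p under 0.05. The median log2 fold change of the members was 0.21, against 0.10 over all genes. Just inside the 1.5-fold threshold lay Igfbp4 (1.59-fold lower in Q808). Past that threshold but not past the p-value lay Igfbp2 (3.11-fold higher), Igf2 (2.74-fold higher) and Igfbp6 (1.63-fold higher). The PTZ and Q808 libraries overlapped for each of them.

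Igfbp5, a binding protein that attaches to extracellular matrix, had 6.31, 10.1 and 14.7 FPKM in PTZ-1, PTZ-2 and PTZ-3 and 24.0 and 15.3 FPKM in Q808-1 and Q808-2. Q808-2 was only just above PTZ-3. The log2 fold change was 0.96 (SE 0.39), and the differences within the sets of 5 and 3 were 0.93 and 0.70. Con. held 10.3, 13.7 and 16.4 FPKM, so that 1 Con. library was above Q808-2, and the Q808 to Con. value was 0.53 (SE 0.29). Within each group the libraries with high striatum markers had the highest Igfbp5, and their part in the result was not tested. The difference from PTZ ran from 0.64 to 1.28 with 1 library left out, and Igfbp5 was not called without PTZ-1, PTZ-2 or Q808-1.

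Igfbp4 had 10.9 and 19.6 FPKM in Q808-1 and Q808-2, both below the lowest PTZ library at 22.2 FPKM. The log2 fold change was -0.67 (SE 0.27). It rested mainly on Q808-1: the difference was -1.02 within the set of 3, which holds Q808-1, and -0.28 within the set of 5. With 1 library left out it ran from -1.09 to -0.25, and the gene was not called without any 1 of the PTZ libraries. No call is given for leaving out a Q808 library, which leaves 1 in that group. Against Con. the value was -0.14 (SE 0.28), with 1 Q808 library above the Con. range of 14.4 to 18.3 FPKM and 1 below it.

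For Igf2 and Igfbp2 the means were 51.1 ± 61.3 FPKM and 85.8 ± 95.4 FPKM (SD, n = 2) in Q808 and 10.8 ± 6.04 FPKM and 17.3 ± 4.13 FPKM (SD, n = 3) in PTZ, so the SD in Q808 was larger than the mean. The log2 fold changes were 1.45 (SE 1.01) and 1.64 (SE 0.82). Q808-2 alone carried them. Without Q808-2 they were -0.35 and 0.11, and without Q808-1 they were 3.25 and 3.17. In the set of 5 the differences were 3.67 for Igf2, 3.35 for Igfbp2 and 4.26 for Ttr, and in the set of 3 they were -1.19, -0.26 and -1.60. Of the choroid plexus list, 14 genes were tested and 1 (the potassium channel subunit gene Kcne2) was called, higher in Q808, with a median of 1.67 over the list. Of the meningeal list, 13 were tested and 1 (Slc6a13) was called higher, with a median of 0.93. Igfbp6 and Igfbp7 also turned sign between the sets, with -0.03 and -0.09 (set of 5) and 0.78 and 0.76 (set of 3) for PTZ over Con. and 1.13 and 0.16 (set of 5) and -0.04 and -0.13 (set of 3) for Q808 over PTZ. For Igfbp6 and Igfbp7, the values of -0.03, -0.09, -0.04 and -0.13 lay near 0, beside SEs of 0.22 to 0.39 over all libraries. The part of choroid plexus or meningeal tissue in the Igf2 and Igfbp2 values was not tested.

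**Figure D3:**
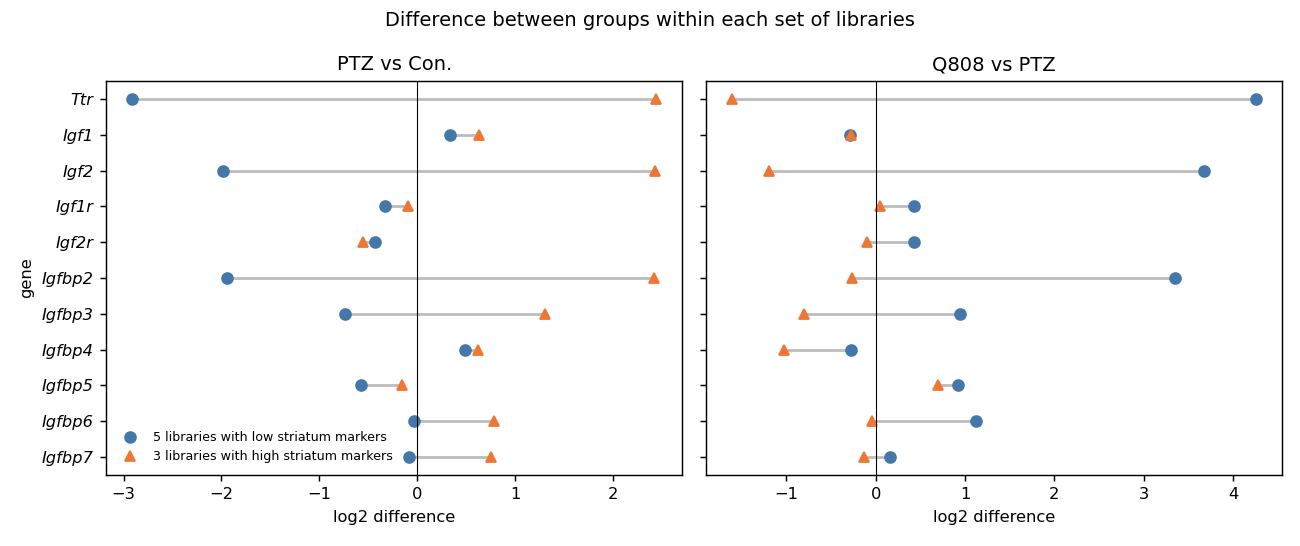
Log2 differences in the comparisons of PTZ with Con. and Q808 with PTZ (x axes) for Ttr and the 10 members (y axis), computed within the 5 libraries with low striatum markers (circles) and within the 3 with high ones (triangles). Ttr, Igf2, Igfbp2, Igfbp3, Igfbp6 and Igfbp7 lie on opposite sides of 0 in both panels, while Igf1, Igf1r, Igfbp4 and Igfbp5 keep their sign in both. Each triangle is a difference between single libraries, and the panels share the PTZ libraries. Igfbp6 and Igfbp7 have a value near 0 in each panel (-0.03 and -0.09 for PTZ with Con., -0.04 and -0.13 for Q808 with PTZ).

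Q808 was also set against Con., the comparison that spans kindling and treatment together. One of the 10 members, Igfbp6, was called, where 3.46% of all genes were, and it was the 1 member whose groups did not overlap, against 20.0% of all genes. One gene in the whole table had an adjusted p under 0.05, which was no member, and 667 had an unadjusted p under 0.05 (limma). The median log2 fold change was 0.22 over the members and 0.04 over all genes. Igfbp6, a binding protein with a strong preference for IGF2, had 6.71, 7.42 and 7.83 FPKM in Con. and 13.1 and 15.2 FPKM in Q808. Both Q808 libraries were above every Con. library, with a 1.92-fold difference (log2 0.94, SE 0.17), and the values within the sets of 5 and 3 were 1.10 and 0.74. With any 1 of the 5 libraries left out the log2 value was 0.84 to 1.05, and Igfbp6 was called with any 1 Con. library left out. Leaving out a Q808 library leaves 1 in that group, so no call is given for it. In PTZ it had 8.97, 5.31 and 13.5 FPKM, and PTZ-3 overlapped with Q808. Beside it, the 13 tested meningeal genes had a median of 0.90 in this comparison with 2 called higher (Bgn and Foxd1). The summed meningeal level was highest in Q808-2 (138 FPKM) and PTZ-3 (68.7 FPKM), as was that of Igfbp6, but it was higher in Con.-1 and Con.-2 (55.4 and 53.7 FPKM) than in Q808-1 (43.3 FPKM), where Igfbp6 was higher. Summed pericyte and vascular smooth muscle markers were at 159 FPKM in PTZ-3, 166 in Q808-1 and 133 in Q808-2, and at 60.03 to 83.4 FPKM elsewhere. Of these 8 genes Acta2, Tagln, Myh11 and Anpep were called higher in Q808 than in Con. (log2 0.90 to 1.58). Pdgfrb, Rgs5, Kcnj8 and Abcc9 were not called. In the endothelial list Cldn5, Tek and Esam were called higher and the other genes were not called. The part of meningeal or vessel tissue in the Igfbp6 value was not tested.

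The remaining members were called in none of the 3 comparisons. Igfbp7 had 85.9, 68.8 and 70.0 FPKM in Con., 74.9, 69.9 and 118 in PTZ and 108 and 81.1 in Q808. Its highest levels stood in PTZ-3 and Q808-1, the libraries with the highest summed endothelial markers. Its log2 fold changes were 0.19 (SE 0.22), 0.13 (SE 0.28) and 0.33 (SE 0.20) for PTZ over Con., Q808 over PTZ and Q808 over Con. Igfbp3 had 3.69, 5.05 and 0.797 FPKM in Con., 3.06, 2.11 and 2.12 in PTZ and 1.18 and 4.96 in Q808, lowest in the same Con. and Q808 libraries as Ttr. Igf1 had 1.23 and 1.46 FPKM in Q808, both below the PTZ range, with a log2 fold change of -0.32 (SE 0.32) to PTZ. Igf1r had 5.08 and 5.73 FPKM in Q808, both above the PTZ range (0.28, SE 0.24), and Igf2r had 5.87 and 9.60 FPKM (0.14, SE 0.27).

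**Figure D4:**
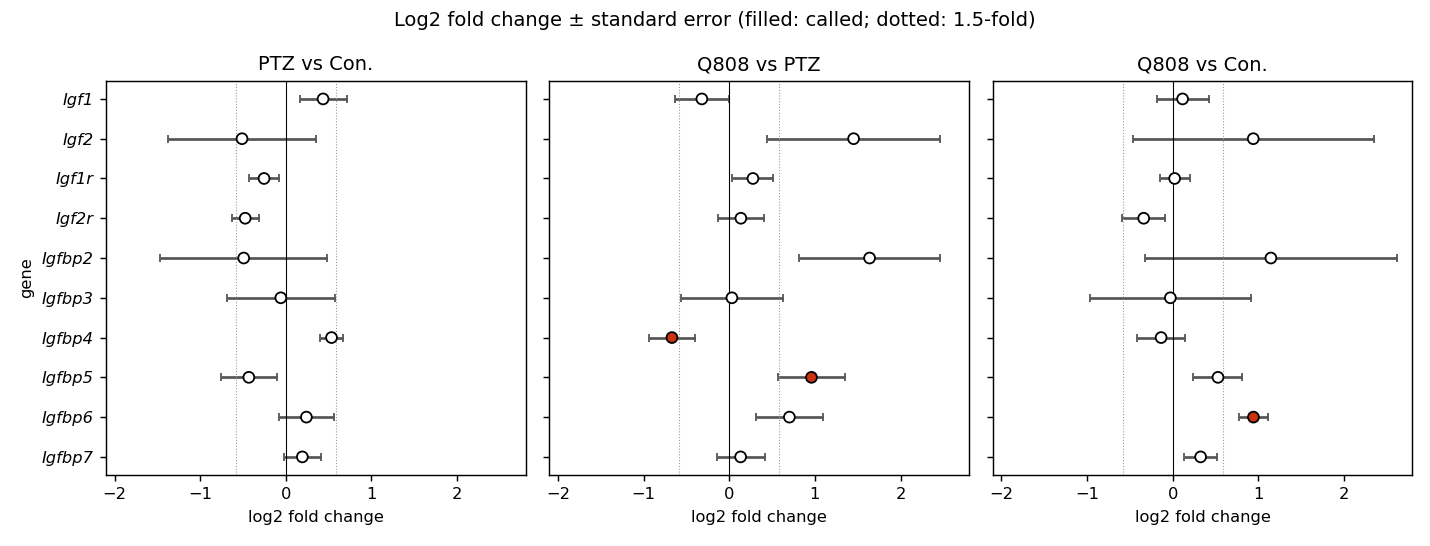
Log2 fold change (x axes) of the 10 members (y axis) in the 3 comparisons, with bars of 1 standard error from limma; filled points were called and dotted lines mark 1.5-fold. Igf2 and Igfbp2 have standard errors of 0.82 to 1.47, and the called members are Igfbp4 and Igfbp5 against PTZ and Igfbp6 against Con.

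The wider pathway was followed in a list of 44 other genes of IGF and insulin signalling, of which 39 were tested. In PTZ against Con. 1 was called higher and none lower, near the 2.53% of all genes, with a median of -0.06 against -0.04 over all genes. It was Rheb, the small GTPase that activates mTOR and a known activity-induced gene, with 102, 99.1 and 98.7 FPKM in Con. and 162, 246 and 117 in PTZ (log2 fold change 0.74, SE 0.25, limma, unadjusted p = 0.0228, adjusted p = 0.999). It was still called without PTZ-1 or PTZ-3, but not without any 1 of the Con. libraries or PTZ-2. In Q808 against PTZ 2 were called higher and 1 lower (1.92% of all genes were called), with a median of 0.02 against 0.10. The insulin receptor gene Insr had 3.52, 3.06 and 3.70 FPKM in PTZ and 6.03 and 4.93 in Q808 (0.66, SE 0.26), and the insulin receptor-related gene Insrr had under 0.05 FPKM in PTZ and 0.377 and 0.302 in Q808 (1.79, SE 0.45). Both belong to the term that drew attention to the family. With 1 library left out, Insr was called only without PTZ-3. Insrr passed the filter on low values through its Q808 libraries and was not called with a pseudocount of 1, and its values are a description only. Rheb had 86.2 and 94.3 FPKM in Q808 and was called lower (-0.89, SE 0.32), and with 1 library left out only without PTZ-3. In Q808 against Con. 1 was called, below the share of 3.46% of all genes, and the median was -0.10 against 0.04. It was Stc2, which encodes an inhibitor of PAPP-A, which was lower at 0.356 and 0.372 FPKM against 1.16, 0.715 and 0.779 (-1.06, SE 0.34), a call that was lost without Con.-1, Q808-1 or Q808-2.

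The insulin gene Ins2 was listed at 0 in every library, and Igfbp1, the neighbour of Igfbp3 on chromosome 14 and mainly a liver product, had at most 0.211 FPKM. Pappa, the protease gene for Igfbp4, had at most 0.218 FPKM, whereas Htra1, a protease that cleaves binding proteins, had 63.3 to 107 FPKM. The IGFBP-like gene Igfbpl1 had 1.48 to 7.36 FPKM and was highest in PTZ-3. Akt1 (38.3 to 47.4 FPKM) and Mtor (10.8 to 14.7 FPKM) were not called in any comparison, nor was Irs1 (0.437 to 1.47 FPKM). Irs2, an insulin receptor substrate gene, had 57.2 and 93.7 FPKM in PTZ-1 and PTZ-2 and 11.5 in PTZ-3, against 15.8 to 27.99 in Con. It was not called (log2 fold change 0.98, SE 0.72, limma, unadjusted p = 0.216).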

How the data were processed

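Hippocampal libraries were sequenced from 3 Con., 3 PTZ and 2 Q808 rats. The authors deposited FPKM per gene and library, computed with Cufflinks, and the submitters' processing notes also name Trimmomatic, HISAT2 and HTSeq. The genome build and tool versions were not given in the sources used here. FPKM keep no depth, so counting error could not be computed. The p-values measure the spread between libraries, in which differences between rats and in the tissue taken cannot be told apart.

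The 15593 of 22601 genes with a mean of at least 0.1 FPKM were tested with limma 3.58.1 (R 4.3.3, empirical Bayes with a trend) on log2(FPKM + 0.1), each comparison on its own 2 groups. A fold change on this scale understates that of low genes. Calls required an unadjusted p under 0.05 and more than 1.5-fold, after the study's threshold, and Benjamini-Hochberg adjustment covered all genes tested. The script was tested on simulated data. Symbols came from RefSeq (GRCr8), which named 20633 of the GeneIDs.

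The members, the gene lists and the sets of 5 and 3 libraries were chosen with earlier results of these data known. The text names all members, listed pathway genes that were called or were listed for their roles, and the 3 genes with the profile most like each member. The values of Slc13a4 and the called choroid plexus, meningeal and vessel genes were chosen after their values were seen. Alternatives were other pseudocounts (0.01 and 1), filters (none and a mean of at least 1), scalings, fits and thresholds, a replicate block, and leaving out libraries.

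Replicate numbers were checked for pairing by correlating deviations from the group means over all genes. For PTZ and Con., same-numbered libraries gave 0.309, 0.392 and 0.472. These values do not show pairing, because the libraries come from different rats and PTZ-1 correlated best with Con.-2 (0.452). The highest value, 0.472, was that of PTZ-3 with Con.-3, which both had high striatum markers. The part of those markers in the correlations was not tested. With the replicate numbers as a block, none of the members was called in PTZ over Con., as without it.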

Additional observations from a re-analysis of the deposited data

How the results depend on the processing

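With 2 or 3 libraries a group, the levels of Igf2, Igfbp2 and Igfbp3 turned on single libraries, and FPKM do not show what depth limits. The count of ranks of Igf2 and Igfbp2 within 1 of that of Ttr (14 of 16) held under the scalings tried. Median ratio factors were only 0.898 to 1.09, small beside the ranges of these genes. A pseudocount cannot change the ranks of a gene over the libraries, so that setting could not test them. In PTZ over Con., 140 of 160 member values kept their direction and side of the threshold, 9 passed it and 11 turned sign; in Q808 over PTZ 133 of 150 and in Q808 over Con. 141 of 150 moved by less than 1 SD.

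Without Con.-3, PTZ-3 and Q808-1, which leaves 1 Q808 library assumed to vary like the other groups, 3 members were called in PTZ over Con. (Igf2, Igfbp2 and Igfbp3, lower), 5 in Q808 over PTZ (Igf2, Igfbp2, Igfbp3, Igfbp5 and Igfbp6) and 3 in Q808 over Con. (Igf2, Igfbp2 and Igfbp6); of the other pathway genes 3 were called in the first comparison and 6 in the second. In PTZ over Con. Igfbp6 (-0.030) and Igfbp7 (-0.088) then turned sign.

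Leaving out 1 library at a time gave 0 to 3 members called in PTZ over Con., where 1.60% to 7.28% of all genes were called. There were 3 without Con.-3 (4.10% of all genes). There was 1 without Con.-1, PTZ-2 or PTZ-3, namely Igfbp4, Igfbp6 and Igfbp5 (2.17%, 1.60% and 7.28% of all genes). Of the other pathway genes 0 to 4 were called, and the 4 came without PTZ-3. In Q808 over PTZ 0 members were called without PTZ-1 or PTZ-2 (0.847% and 0.956% of all genes). Leaving out a Q808 library leaves 1 in that group, so its counts are left out here. Log2 fold changes of PTZ over Con. then ran from -1.56 to 0.051 for Igf2, from -1.76 to 0.21 for Igfbp2, from -0.82 to 0.44 for Igfbp3, from -0.080 to 0.59 for Igfbp6 and from -0.043 to 0.34 for Igfbp7.

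In Q808 over PTZ, 0 members were called with no filter or with no trend, where 2.33% and 2.69% of all genes were. At 2-fold 0 were called too, and the share over all genes was not computed for that threshold. One (Igfbp4) was called at a mean of at least 1, with quantile normalization or with median ratio scaling, where 1.54%, 1.74% and 1.89% of all genes were. Of the other pathway genes, 1 was called in Q808 over PTZ with a pseudocount of 1 (1.40% of all genes), quantile normalization (1.74%) or 2-fold. In PTZ over Con. 2 were called with all 3 groups in a fit, no trend, quantile normalization, median ratio scaling or the block. With those settings 2.59% to 3.95% of all genes were called. At 2-fold 0 were called in that comparison. In Q808 over Con. 0 were called with a pseudocount of 1 (2.18% of all genes) or a mean of at least 1 (2.94%). At 2-fold 0 members were called in Q808 over Con. The cause was not tested.

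The replicate block turned no member call of PTZ over Con. Q808 shares only 2 numbers with each other group (same-number correlations -0.439 and 0.416 with PTZ, -0.463 and 0.661 with Con.), which does not pair the rats. With the block 3 members (Igfbp4, Igfbp5 and Igfbp6) and 7 other pathway genes were called in Q808 over PTZ, where 12.1% of all genes were. In Q808 over Con. it called 1 member, where 6.90% of all genes were called. Over all genes, calls in PTZ over Con. numbered 395, with 616 under the block, 219 with a pseudocount of 1 and 1532 without the 3 libraries. In Q808 over PTZ they numbered 300, with 1894 under the block and 193 at a mean of at least 1. In Q808 over Con. they numbered 540, with 1076 under the block and 340 with a pseudocount of 1. With 1 Con. or PTZ library left out they numbered 249 to 1135, 132 to 1569 and 279 to 704 in the same order of comparisons.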
